A study of Homo sapiens with 6 samples.

Results

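Genes of the Schwann cell and glial lineage were followed in A375, a human melanoma cell line that carries an activated BRAF kinase, with and without a knockdown of the germinal centre kinase MAP4K5. The 7 genes named for this group were CDH19, PTPRZ1, S100B, EDNRB, NGFR, GFRA1 and PMP22, and every probe set annotated to exactly 1 of these symbols was taken, whatever its values. This gave 20 of 44988 probe sets, from 6 of 18132 genes. No probe set was matched to PMP22, a myelin membrane protein gene, which was not analysed here. Control arrays held untreated A375 cells (n = 3), and knockdown arrays held untreated A375 cells stably expressing a short hairpin RNA against MAP4K5 (n = 3), both grown in serum-containing DMEM medium. The sources used here give neither a vector for the control cells nor whether the knockdown line was 1 clone or a pool, and loss of MAP4K5 cannot be told apart from hairpin or selection effects. MAP4K5 itself measured 76.3 to 78.1 in control and 18.8 to 20.3 in knockdown arrays at its brightest probe set. The genes were chosen with the results of this comparison known, from the same intensities given below. Their values are therefore a description without a test.

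Schwann cells and melanocytes both derive from the neural crest, and part of the melanocytes of the skin arise from Schwann cell precursors along nerves. These precursors depend on neuregulin signalling through ERBB3 and on the transcription factor SOX10. Melanoma cells often keep genes of this glial programme, among them S100B, the calcium-binding protein used as a melanoma and nerve sheath marker. The group holds an adhesion protein of the precursor stage (CDH19), receptors for pleiotrophin (PTPRZ1), endothelins (EDNRB), neurotrophins (NGFR) and glial cell line-derived neurotrophic factor (GFRA1), and S100B.

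CDH19, PTPRZ1, S100B and EDNRB were lower in knockdown cells, at 19.2%, 26.8%, 40.4% and 53.4% of the control level. NGFR stood at 106% and GFRA1 at 89.7%. Levels are the authors' RMA intensities, an array summary on a linear scale, at the brightest probe set of each gene, and the percentages come from means of log2 values. In bulk RNA, fewer cells expressing a gene and less of its RNA per cell cannot be told apart. By limma over all 18132 genes at an adjusted p under 0.05, 4 of the 6 genes were called lower, where 4.13% of all genes were. Since the genes were chosen with these differences known, this count is a description and no test of the group. The median log2 fold change, knockdown minus control, was -1.11 over the 6 genes and 0.01 over all genes.

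The sequences just upstream of the start are shown for 3 of the genes that were lower, to compare what lies at their promoters. Each run holds the 250 bases before an annotated start, read 5′ to 3′ on the gene's strand, from RefSeq on GRCh38.p14. Capitals mark ACAAAG or ACAATG, short forms of the site bound by SOX proteins, and GCCNNNGGC, the core bound by AP-2 proteins, searched on both strands. The windows are CDH19 at chr18:66604091-66604340 on the minus strand, PTPRZ1 at chr7:121872911-121873160 on the plus strand, and 2 starts of EDNRB on the minus strand, at chr13:77919683-77919932 and chr13:77918832-77919081.
CDH19: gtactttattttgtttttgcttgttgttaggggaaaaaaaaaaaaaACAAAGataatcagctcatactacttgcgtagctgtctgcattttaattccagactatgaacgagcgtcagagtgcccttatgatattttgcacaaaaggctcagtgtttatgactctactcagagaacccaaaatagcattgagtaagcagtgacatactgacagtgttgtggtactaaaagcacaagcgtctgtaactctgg
PTPRZ1: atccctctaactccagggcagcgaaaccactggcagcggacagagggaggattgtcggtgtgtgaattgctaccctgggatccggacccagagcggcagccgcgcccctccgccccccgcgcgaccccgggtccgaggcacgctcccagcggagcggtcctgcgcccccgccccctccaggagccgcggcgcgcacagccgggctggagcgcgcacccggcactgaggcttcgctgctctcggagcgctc
EDNRB, first window: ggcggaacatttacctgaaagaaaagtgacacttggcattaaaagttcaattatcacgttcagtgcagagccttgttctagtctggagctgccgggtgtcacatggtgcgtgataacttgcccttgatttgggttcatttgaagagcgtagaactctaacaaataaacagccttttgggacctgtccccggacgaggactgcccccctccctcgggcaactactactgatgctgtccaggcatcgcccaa
EDNRB, second window: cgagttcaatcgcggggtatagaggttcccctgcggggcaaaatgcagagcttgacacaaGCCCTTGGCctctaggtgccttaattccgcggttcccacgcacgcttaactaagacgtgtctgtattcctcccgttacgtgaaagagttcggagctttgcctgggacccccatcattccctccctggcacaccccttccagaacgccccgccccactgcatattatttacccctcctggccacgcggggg
The CDH19 window held 1 SOX match, beginning 204 bases before the start. The second EDNRB window held 1 AP-2 match, beginning 190 bases before its start. No match to either motif lay in the PTPRZ1 window or the first EDNRB window. The matches were not limited to genes that were called lower. Of 4 windows of GFRA1, which was not called, 1 held a SOX match and another an AP-2 match. PMP22 had no measured level, and of its 3 windows 1 held a SOX match. Over all 35116 windows of this length, 21.2% held a SOX match and 19.8% an AP-2 match. The sequences also differed in composition, with 38% G and C and 4 CpG sites for CDH19, 73.2% and 29 for PTPRZ1, and 50% and 9, and 58.4% and 16, for EDNRB, against medians of 58% and 11 over all windows.

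CDH19, a type II cadherin of Schwann cell precursors, had the lowest knockdown values relative to control. Its brightest probe set measured 96.0, 66.8 and 107 in control replicates 1, 2 and 3, and 16.3, 17.5 and 16.9 in the knockdown replicates. All control arrays lay well above all knockdown arrays, which differed little among themselves. The difference was -2.38 ± 0.16 (SE) on the log2 scale, or 5.21-fold lower, and it was the 9th lowest of the 18132 genes. The other 3 CDH19 probe sets gave -1.79 ± 0.22, -1.47 ± 0.12 and -0.74 ± 0.12, and none overlapped between the groups. Their signal was dimmer, at 3.79 to 5.01 in control cells for the dimmest.

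PTPRZ1, a receptor tyrosine phosphatase of glial cells that binds the growth factors pleiotrophin and midkine, measured 19.0, 12.2 and 17.5 in the control replicates and 3.92, 4.15 and 4.77 in the knockdown replicates. Again the groups did not overlap, and the knockdown values lay below 4.98, the median level of all probe sets. The log2 difference was -1.90 ± 0.17 (SE), 3.74-fold lower. This probe set, whose ID ends in _s_at, can bind several transcripts, and the remaining 2 probe sets gave -1.09 ± 0.16 and -0.52 ± 0.09, also without overlap.

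EDNRB, the endothelin receptor through which endothelin 3 supports melanocyte and enteric glial precursors, measured 30.7, 29.8 and 28.0 in the control replicates. The knockdown replicates gave 15.6, 14.2 and 17.6. The difference was -0.91 ± 0.10 (SE), 1.87-fold lower, with control arrays closely alike. A second probe set was lower by more, -1.10 ± 0.12, while 2 others gave -0.46 ± 0.15 and -0.40 ± 0.11 and were not called in the fit over probe sets. In all 4 the control arrays lay above the knockdown arrays. A further probe set shared with the surfactant gene SFTPB carries 2 symbols and was left out by the rule.

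NGFR, the low-affinity neurotrophin receptor that marks neural crest-like melanoma cells, did not follow these genes. Its brightest probe set measured 14.7, 14.4 and 14.4 in control and 15.9, 15.6 and 14.8 in knockdown replicates. Knockdown arrays were the higher ones, by a log2 difference of only 0.09 ± 0.08 (SE), and the lowest of them stood next to the highest control. The dimmer probe set gave 4.97, 3.45 and 5.0 in control and 5.52, 5.11 and 5.90 in knockdown replicates, a difference of 0.32 ± 0.15. Neither was called.

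GFRA1, the co-receptor that presents glial cell line-derived neurotrophic factor to RET, was dim on every array. Its brightest probe set measured 3.43, 3.55 and 2.83 in control and 2.75, 3.03 and 3.0 in knockdown replicates, and the groups overlapped. The log2 difference was -0.16 ± 0.11 (SE). All 4 of its probe sets lay below the median level of all probe sets, with differences from -0.16 to 0.07 and overlapping groups, and none was called. A p above the threshold does not show that its level was the same in both groups.

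S100B, the calcium-binding protein, measured 66.2, 55.2 and 82.0 in the control replicates and 26.9, 24.7 and 29.7 in the knockdown replicates. The lowest control array remained well above the highest knockdown array. The log2 difference was -1.31 ± 0.15 (SE), 2.48-fold lower. Its other probe sets gave -1.10 ± 0.20 and -0.86 ± 0.12, also with no overlap.

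**Figure D1:**
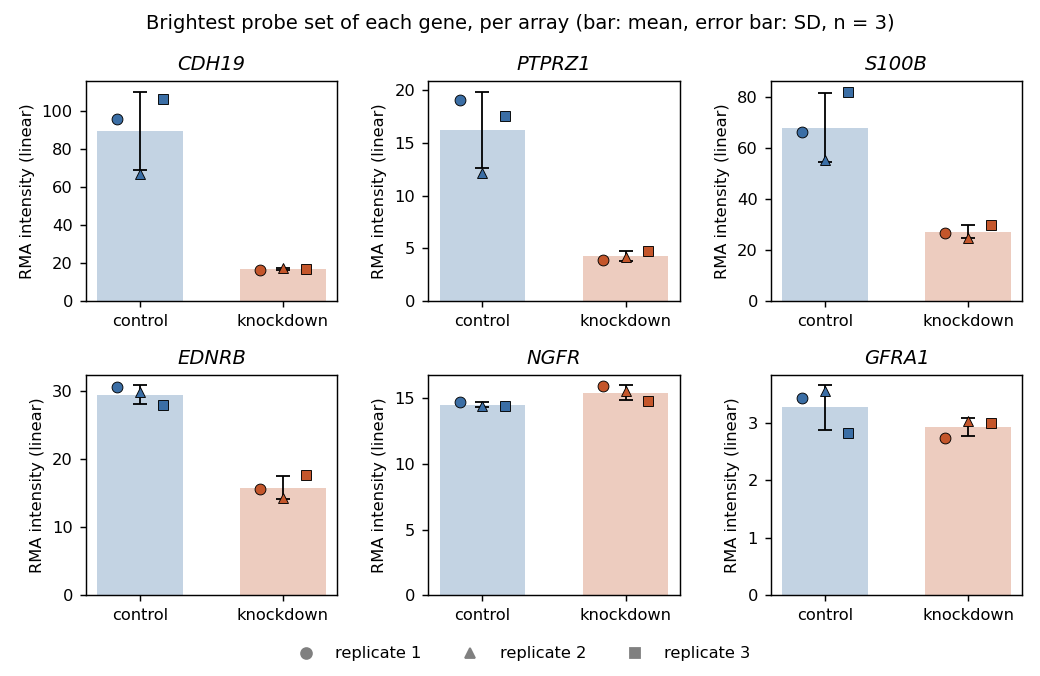
RMA intensity on a linear axis from 0 for the brightest probe set of 6 genes in 3 control (blue) and 3 knockdown (orange) arrays, with bars for means, error bars for SD and point shapes for replicate numbers. CDH19, PTPRZ1, S100B and EDNRB are lower in every knockdown array, NGFR stays between 14.4 and 15.9, and GFRA1 overlaps between the groups.

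Probe sets of 1 gene pointed the same way for every gene but GFRA1. Of the 20 probe sets, 14 were lower in all knockdown arrays than in any control array, as were 11.8% of all probe sets, and 12 were called lower by limma over 44988 probe sets, as were 2.5% of all. The 14 were the 4 of CDH19, 3 of PTPRZ1, 3 of S100B and 4 of EDNRB. Both NGFR probe sets were higher in every knockdown array than in any control array, as were 12.2% of all probe sets. The smallest differences of CDH19 and PTPRZ1 came from their dimmest probe sets, while the EDNRB probe set with the largest difference was dimmer than its brightest. Probe sets of a gene share its RNA and the same arrays, so they are not replicates of the comparison. As the genes were chosen with these differences known, the counts beside the shares of all probe sets are no test either.

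**Figure D2:**
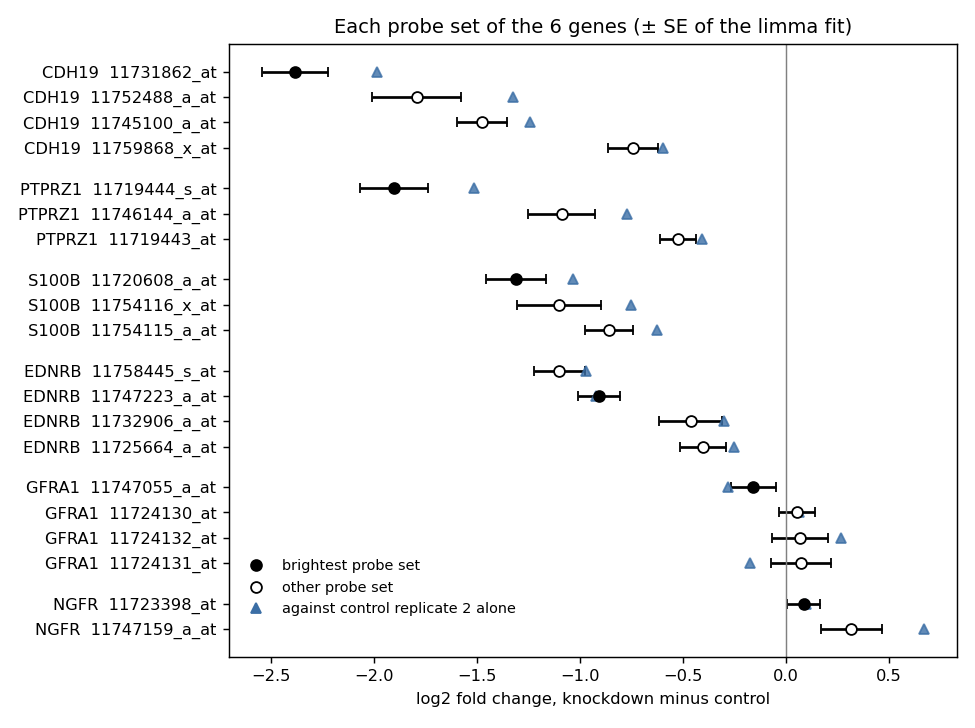
Log2 fold change, knockdown minus control, of each of the 20 probe sets, with error bars for the SE of the limma fit. Filled circles mark the brightest probe set of a gene, open circles the others and triangles the value against control replicate 2 alone. CDH19 reaches -2.38, its 4 probe sets spread down to -0.74, and the GFRA1 and NGFR probe sets lie between -0.16 and 0.32.

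The control arrays were not alike, and at their brightest probe sets the genes differed in how far control replicate 2 stood from the other 2 controls. Its CDH19 level was 0.66 times, its PTPRZ1 level 0.67 times and its S100B level 0.74 times the mean of control replicates 1 and 3. For EDNRB and NGFR the ratios at the brightest probe sets were 1.02 and 0.99. Their other probe sets stood lower, at 0.83, 0.87 and 0.85 for EDNRB and 0.69 for NGFR. Over all probe sets with 1 symbol, control replicate 2 correlated at 0.993 with each knockdown array and at 0.991 with each other control, while control replicates 1 and 3 correlated at 0.995. Against control replicate 2 alone, a comparison without a test, CDH19 was -1.98, PTPRZ1 -1.51, S100B -1.03 and EDNRB -0.92. The 4 genes called lower were called in each of the 6 fits that left out 1 array, with ranges of -2.58 to -2.24, -2.10 to -1.77, -1.45 to -1.16 and -0.99 to -0.83. The number of their probe sets called was 7 without knockdown replicate 1. These genes were chosen with their differences on the same arrays known, so the calls are no independent test.

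The 4 genes had nearly the same profile over the 6 arrays. The Pearson correlation of log2 levels was 0.993 between CDH19 and PTPRZ1, 0.987 between CDH19 and S100B, and 0.956 between CDH19 and EDNRB. NGFR ran opposite, at -0.78 with CDH19. These are descriptions over 6 arrays that fall into 2 groups, and the difference between the groups enters every one of them. Among 886 candidate genes, those whose log2 range was at least 1 and members set aside, AGMO and DEPDC7 were most like CDH19 (r = 0.999 and 0.998), and KLF9 and ATP9A most like PTPRZ1 (both 0.999). TNC, an extracellular matrix protein that PTPRZ1 binds, and STRA6, a retinol transporter, were most like S100B (0.999 and 0.997), and OLFML2A and DNAJC6 most like EDNRB (0.998 and 0.993). CORO2B and H2AC11 were nearest to NGFR (0.957 and 0.929), and CCL2 and SSBP3 to GFRA1 (0.905 and 0.878), but those 2 members spanned only 0.15 and 0.37 on the log2 scale.

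The wider pathways of these genes were read from 10 lists with 115 distinct genes, of which 104 were measured. By limma over all 18132 genes, 8 rose and 11 fell, 18.3% of those measured, where 7.83% of all genes were called (3.7% higher and 4.13% lower), and the median log2 fold change was 0.000567 against 0.01 over all genes. The lists were chosen with earlier results of these data known, so these shares are a description and no test of the pathways. Without control replicate 2, 10 rose and 15 fell. Of the 19 called genes, 7 were called in all 6 fits without 1 array, namely BDNF, TNC, SOX9, FOXD3, TFAP2B, ERBB3 and FABP7. CDH11, EMP3 and ITGA4 were called in 4 fits, EMP3 losing its call without knockdown replicate 1 or 2, and CDH11 and ITGA4 without knockdown replicate 1 or 3. Among these fits the other 9, called in the fit of all arrays, kept their call only in the one without control replicate 2.

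Transcription factors of the glial and neural crest lineage moved in both directions, with 1 of 15 higher and 4 lower. The share called was 33.3% of the list, where 7.83% of all genes were called. TFAP2B, an AP-2 factor of the neural crest, measured 38.3, 33.1 and 42.9 in control and 5.80, 5.26 and 7.21 in knockdown replicates, a fall of 2.65 ± 0.14 on the log2 scale (SE, limma adjusted p = 0.000101, n = 3 per group). FOXD3, which holds crest cells in the glial rather than the melanocyte fate, fell by 1.77 ± 0.15 at its single probe set. It went from 21.8, 19.0 and 27.9 in control to 6.14, 6.28 and 7.60 in knockdown replicates. SOX9, a related SOX factor of crest and cartilage cells, rose 3.13-fold, from 29.0, 36.8 and 24.2 in control to 90.6, 91.9 and 95.4 in knockdown replicates (1.65 ± 0.14, adjusted p = 0.000785). In none of these did the groups overlap. SOX10 and POU3F2, named beyond the 2 largest falls after their values were seen, fell by 0.54 ± 0.11 and 0.77 ± 0.19. The single probe set of POU3F2 was not called in the limma fit over probe sets (adjusted p = 0.0577). SOX10, the central factor of the Schwann and melanocyte lineages, measured 34.5, 28.3 and 37.7 in control and 23.7, 22.1 and 22.9 in knockdown replicates, but its second, dimmer probe set gave -0.05 ± 0.11. Leaving out 1 array, both calls held only without control replicate 2, with ranges of -0.66 to -0.45 for SOX10 and -0.90 to -0.58 for POU3F2 over the 6 fits.

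Of the neuregulin and ERBB genes, 1 of 9 rose and 2 fell, 33.3% against 7.83% of all genes called. ERBB3, the neuregulin receptor of Schwann cell precursors, measured 156, 120 and 164 in control and 51.9, 56.1 and 64.6 in knockdown replicates, a fall of 1.34 ± 0.14 on the log2 scale (limma adjusted p = 0.00159, n = 3 per group). That probe set ends in _x_at and can bind several transcripts. The other ERBB3 probe sets, both dim, gave -0.93 ± 0.12, also called, and 0.10 ± 0.15. Where probe sets ending in _x_at or _s_at were left out, the last of these stood for the gene, which was then not called. NRG1, its ligand, measured 8.86, 15.1 and 8.31 in control and 25.4, 19.3 and 24.9 in knockdown replicates, a rise of 1.15 ± 0.22 that was called at 2 of 8 probe sets. ADAM17, a protease that sheds neuregulin, fell by 0.57 ± 0.13, called at 1 of 4 probe sets. NRG1 and ADAM17 kept their calls only without control replicate 2 (0.99 to 1.42 and -0.68 to -0.43 over the 6 fits).

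Markers of precursor and immature Schwann cells gave 3 falls among 11 genes and no rise in the fit of all arrays. That was 27.3%, where 7.83% of all genes were called. Without control replicate 2 there was 1 rise, that of NES, an intermediate filament protein of progenitor cells (0.35, against 0.13 ± 0.17 with all arrays). GAP43, a growth cone protein, was at 0.03 ± 0.09 at its brightest probe set and at 0.57 where sets ending in _x_at or _s_at were left out, with 1 of 6 probe sets called. FABP7, a fatty acid-binding protein of glial precursors, measured 26.7, 23.7 and 30.0 in control and 9.96, 13.2 and 15.5 in knockdown replicates, a fall of 1.07 ± 0.16 (SE, limma adjusted p = 0.00871, n = 3 per group). Its other probe set, near the bottom of the scale, gave 0.01 ± 0.09. ITGA4, an integrin chain, fell by 0.91 ± 0.15. MIA, a secreted melanoma protein named beyond the 2 largest falls after its value was seen, fell by 0.85 ± 0.17 at its single probe set. The MIA call was kept only without control replicate 2 (-1.05 to -0.68 over the 6 fits). Control replicate 2 held the highest control level of ITGA4 and POU3F2 and the lowest of MIA, FABP7, ERBB3 and SOX10.

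Ligands and partners of the receptors were measured beside them. Of the 7 genes listed for PTPRZ1 only TNC was called (14.3%, against 7.83% of all genes). It fell from 259, 231 and 297 in control to 146, 146 and 159 in knockdown replicates (-0.80 ± 0.11 SE, limma adjusted p = 0.00538, n = 3 per group), with 4 of 4 probe sets called. The growth factors midkine (MDK, -0.32 ± 0.11) and pleiotrophin (PTN, -0.02 ± 0.11) were not called. Among 10 neurotrophin pathway genes 2 rose, 20% against 7.83% of all genes called. BDNF, a neurotrophin that binds NGFR, measured 42.5, 36.9 and 35.6 in control and 96.5, 103 and 109 in knockdown replicates, a 2.69-fold rise (1.43 ± 0.10, adjusted p = 0.000312) called at 5 of 5 probe sets. The sorting receptor SORL1 rose by 0.41 ± 0.09, a call kept only without control replicate 2 (0.36 to 0.49). By limma 0 of 6 endothelin genes and 0 of 8 genes of the GDNF family pathway were called, and both counts were also 0 at an unadjusted p under 0.05. The smallest p-values were those of MME (0.14 ± 0.09, limma adjusted p = 0.39) and GFRA4 (0.19 ± 0.09, limma adjusted p = 0.275). RET, the signalling partner of GFRA1, lay at 3.09 ± 0.27 in control and 2.96 ± 0.35 in knockdown cells (SD), and EDN3, the EDNRB ligand, at 2.99 ± 0.41 and 3.03 ± 0.09, all below the median gene level of 8.68.

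**Figure D3:**
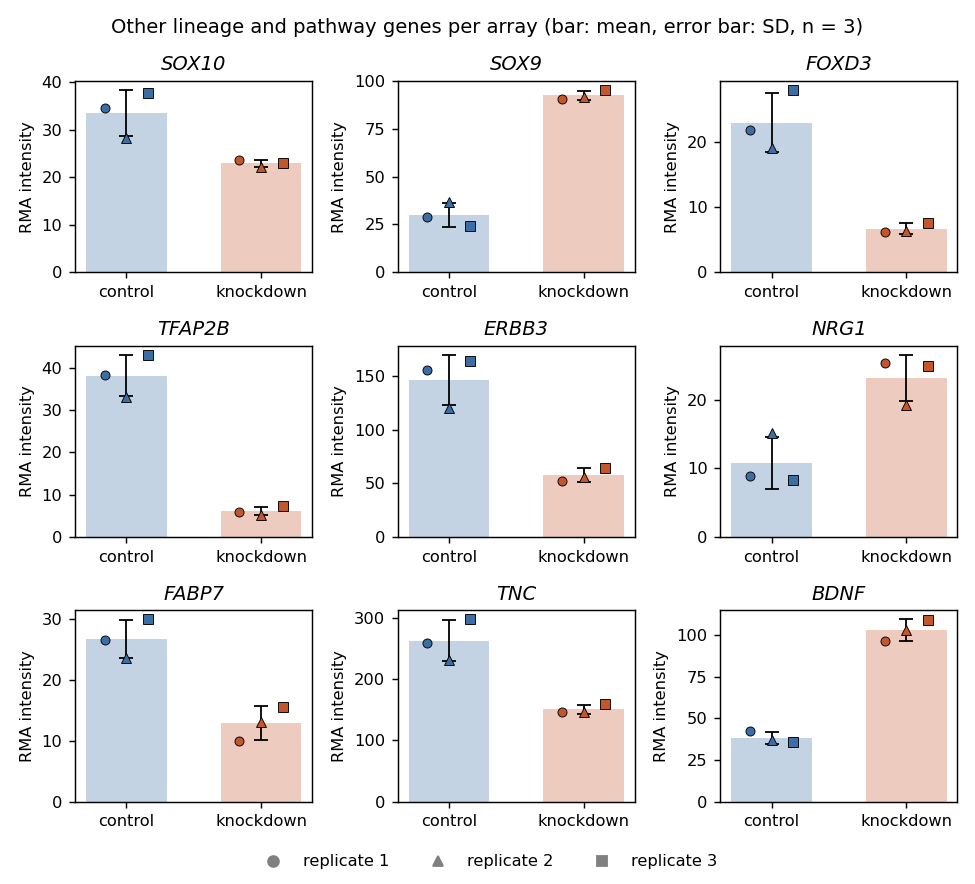
RMA intensity on a linear axis from 0 for 9 pathway genes in 3 control (blue) and 3 knockdown (orange) arrays, with bars for means, error bars for SD and point shapes for replicate numbers. SOX10, FOXD3, TFAP2B, ERBB3, FABP7 and TNC are lower and SOX9, NRG1 and BDNF higher in every knockdown array, and control replicate 2 is the control nearest to the knockdown arrays for each of these genes but BDNF.

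Relatives of CDH19, S100B and PMP22 gave few calls, in both directions. Of 15 type II cadherins and catenins, 2 rose and 1 fell. The shares called were 20% of that list, 12.5% of the S100B list and 6.25% of the PMP22 and myelin list. Over all genes 7.83% were called, and the last 2 shares rest on 1 call each. CDH11, a mesenchymal cadherin, rose from 2.45, 4.43 and 2.47 in control to 8.83, 6.61 and 8.68 in knockdown replicates (1.41 ± 0.23 SE, limma adjusted p = 0.0109, n = 3 per group), but at 1 of 6 probe sets. The desmosome and junction protein JUP rose by 0.44 ± 0.09 at its single probe set, and CDH12, a brain cadherin, fell by 0.52 ± 0.10. Each call was kept only without control replicate 2 (0.36 to 0.50 and -0.60 to -0.45). S100A4, a member of the S100 family tied to cell motility, rose by 0.56 ± 0.12, the single call among 8 genes and also kept only without control replicate 2 (0.47 to 0.70). S100P, another S100 protein, measured 115, 14.7 and 120 in control and 11.2, 9.84 and 10.6 in knockdown replicates. Control replicate 2 lay near the knockdown arrays, and the difference of -2.48 ± 0.70 (SE, limma adjusted p = 0.0689, n = 3 per group) was not called, but it was called without that array (-3.48). EMP3, a relative of PMP22, rose from 42.5, 57.2 and 59.2 in control to 92.0, 96.8 and 82.6 in knockdown replicates (0.78 ± 0.14, limma adjusted p = 0.0144) at its single probe set. It was the only call among 16 PMP22 family and myelin genes. Its relatives EMP1 (-0.22 ± 0.08) and EMP2 (-0.17 ± 0.13) were not called. NDRG1 of the same list, named after its values were seen, measured 111, 50.7 and 78.0 in control and 45.8, 42.3 and 43.6 in knockdown replicates. Its difference of -0.79 ± 0.24 (limma adjusted p = 0.0849) was not called, but it was called without control replicate 2. In the fit over probe sets, 0 of its 6 were called.

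**Figure D4:**
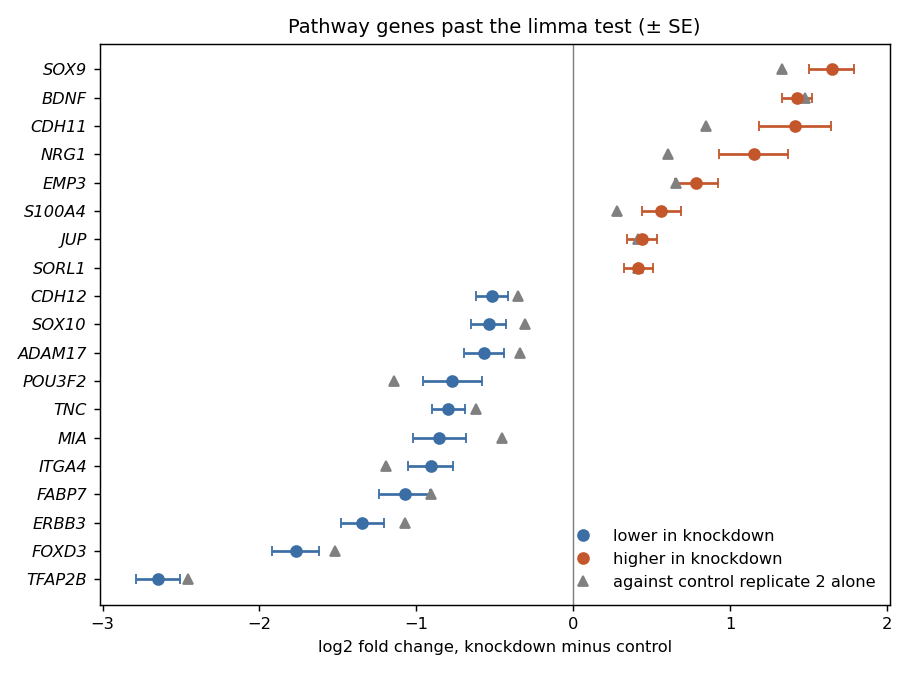
Log2 fold change, knockdown minus control, of the 19 pathway genes called by limma, with error bars for the SE, and grey triangles for the value against control replicate 2 alone. Values run from -2.65 for TFAP2B to 1.65 for SOX9, and each triangle lies on the same side of 0 as its circle.

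Markers of several cell types were read on the same arrays, all of the A375 cell line, as a description of its expression. Of 7 markers of myelinating Schwann cells 5 were measured, and only PRX reached the median gene level, at 10.6 ± 0.41 in control and 9.86 ± 0.74 in knockdown cells (SD). By limma 0 of the 5 was called, also at an unadjusted p under 0.05, and their summed level was 21.9 to 22.3 in control and 20.6 to 22.7 in knockdown arrays. All 7 markers of central glia lay below the median gene and 0 were called by limma, also at an unadjusted p under 0.05, with sums of 25.1 to 26.4 and 24.6 to 28.3. Of 6 melanocyte markers measured, MITF and SOX10 lay above the median gene, and TYR, TYRP1, MLANA and PMEL did not. MITF, the master factor of melanocytes, rose by 0.99 ± 0.16 (SE, limma adjusted p = 0.0114, n = 3 per group), SOX10 fell as given above, and the other 4 were not called. The summed melanocyte level was 97.3 to 119 in control and 149.7 to 158 in knockdown arrays, and MITF was the single called gene that was higher, at 50.6, 79.4 and 52.8 in control and 122, 116 and 118 in knockdown replicates. Keratinocyte markers summed to 123 to 147 and 172 to 188, with KRT14 and KRT10 called higher among 5 measured, where 7.83% of all genes were called. Most of that sum was KRT10, at 118 ± 10.7 in control and 159 ± 9.2 in knockdown cells (SD). KRT14 was at 6.12 ± 1.35 and 12.8 ± 1.1, and KRT5, KRT1 and DSG3 lay below the median gene and were not called. Fibroblast (7 genes), endothelial (5) and leukocyte (4) lists had 0 calls by limma (2, 0 and 1 genes at an unadjusted p under 0.05), with sums of 27.8 to 28.5 against 24.9 to 26.6, 18.8 to 20.4 against 19.3 to 23.8, and 49.1 to 62.7 against 50.3 to 52.3. Most of the leukocyte sum was CD68, at 48.9 ± 7.1 in control and 43.3 ± 1.3 in knockdown cells (SD). PTPRC, CD3E and CD14 lay below the median gene. The part of the markers of all these lists in the differences above was not tested.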

How the data were processed

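Total RNA from 3 control and 3 knockdown cultures was hybridised to Affymetrix arrays as biotin-labelled cRNA, per the labels' protocols. The authors deposited linear intensities per probe set from RMA, per the submitters' processing notes. RMA subtracts background, makes the arrays' distributions equal and merges probes into 1 value per set. The sources used here give no version of it, and the linear scale was read from the values (1.55 to 6658). Per the labels the arrays are biological replicates. How the cultures were separated is not stated, so p-values reflect only the spread among these arrays, whose number limits the precision.

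Log2 was taken without a pseudocount or a filter. The platform annotation gave 44988 of 49293 probe sets 1 gene symbol, and symbols were checked through Entrez identifiers against RefSeq (GRCh38.p14). A gene was read from its brightest probe set by mean log2 level. Knockdown was compared with control by limma 3.58.1 in R 4.3.3 (lmFit and eBayes without trend), and p-values were adjusted by Benjamini-Hochberg over the 18132 genes, or the 44988 probe sets, at a threshold of 0.05. The step was tested on simulated data. Named genes were the 7 members, up to 2 rises and 2 falls per list among called genes or the gene with the smallest p, direct ligands, partners and relatives of the members, and the 2 genes most correlated with each member among those with a log2 range of at least 1. The members and lists were chosen with earlier results of these data known. Alternatives were a replicate block, an intensity trend, other normalizations, filters on dim genes, averaging the probe sets of a gene, dropping those ending in _x_at or _s_at, log2(value + 1) and leaving out each array. The values against a single control array were chosen after seeing the data. Other steps ran in Python 3.11.15 with numpy 2.4.6, pandas 2.3.3 and matplotlib 3.10.9. Promoter windows came from RefSeq on GRCh38.p14 and matched CDH19, PTPRZ1, EDNRB, GFRA1 and PMP22.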

Additional observations from a re-analysis of the deposited data

How the results depend on the processing

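The 4 genes called lower (CDH19, PTPRZ1, S100B and EDNRB) numbered 4 under each alternative but 1, a count of 3 with the dimmer 50% of genes left out, which removed PTPRZ1. No value of a called member changed sign under any alternative run. Over the fits without 1 array, genes called ranged from 324 to 3732 against 1420, probe sets from 360 to 6127 against 2017, pathway list genes from 7 to 25 against 19, and member probe sets from 7 to 13 against 12. The lowest of each came without knockdown replicate 1 and the highest without control replicate 2. Probe sets called numbered 1279 without those ending in _x_at or _s_at, where fewer were tested. The largest moves of CDH19 and PTPRZ1 came when all probe sets of a gene were averaged (-1.60 and -1.17) and, for PTPRZ1, without _x_at and _s_at sets (-1.09). S100B moved most against single controls (-1.60 against control replicate 3, -1.03 against control replicate 2). No pairing by replicate number was seen in the values, where the correlations of same-numbered deviations were -0.08, 0.02 and 0.06. With so few arrays this does not show that the cultures were unpaired. With the replicate block 1188 genes, 1852 probe sets, 19 pathway genes, 4 member genes and 12 member probe sets were called. GFRA1 was dim on every array. Some probe sets of CDH19 and PTPRZ1 at like control levels were called, but these genes were chosen with their differences known. Whether a change of GFRA1 could be seen at its level was not tested. The number of arrays, 3 per group, limits the precision.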
